A study of Xenopus laevis with 12 samples.

Results

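The genes described here encode the cytoplasmic factors that start, extend and end protein synthesis. They were taken from the count table by name: every symbol that begins with eif1 to eif6, eef1, eef2 or a numbered pabpc, together with etf1 and gspt1, after the homeolog ending (.L or .S) and any trailing copy number were removed. This gave 104 genes of 18892 in the table, from 65 base symbols, with 54 names ending in L and 50 in S. All 104 passed the filter on low counts, and 18791 genes were tested in all.

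The samples were whole embryos of the frog Xenopus laevis at stage 9.5, called early gastrula in the labels, in 4 groups of 3 libraries: genistein, BIO, Chiron and control. Genistein is a soy isoflavone that inhibits tyrosine kinases, and the series text places this treatment at the 4-cell stage. BIO is the indirubin derivative 6-bromoindirubin-3′-oxime. Chiron stands for CHIR 99021. Both block GSK3, a kinase that keeps beta-catenin low, and so act as activators of Wnt signalling. The sources used here give no dose, no vehicle for the control embryos and no stage for the addition of BIO and Chiron, so the compounds cannot be taken as dose-matched. Each replicate was RNA from 3 pooled embryos, and 60 ng of it went into a strand-specific poly-A library. The labels do not say that replicates came from separate clutches, so the spread behind each p-value may be technical, and a p-value speaks for these samples alone. In whole-embryo RNA, fewer cells of a type and less RNA per cell cannot be told apart. Whether the length of poly(A) tails affected the counts of these poly-A libraries was not tested.

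Initiation begins when eIF2 brings the initiator tRNA to the small ribosomal subunit, where eIF1, eIF1A and eIF3 help it scan for the start codon. The mRNA is recruited through its cap by eIF4E, its scaffold eIF4G and the helicase eIF4A, and poly(A) binding proteins join the other end of the message to the same scaffold. eEF1A then delivers each aminoacyl tRNA, eEF1B recharges eEF1A with GTP, eEF2 moves the ribosome along, and eRF1 with eRF3 ends the chain. Early frog embryos live largely on maternal mRNAs and ribosomes, and control of these messages by poly(A) length and by eIF4E-binding proteins is a textbook feature of their development. Xenopus laevis is an allotetraploid, so many genes come in 2 copies, L and S, called homeologs, and the counting could split reads between near-identical copies. This makes the value of any single copy uncertain.

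The library totals ran from 11091927 to 15486533 counts, so a count of 0 allows a level of up to 0.185 to 0.288 CPM by library (3 counts, for counting error only). CPM here means counts scaled to a common library size after TMM, which evens out composition. As checks of stage, the maternal vegt.L stood at 323 to 728 CPM and the endodermal sox17a.L at 3.22 to 13.8 CPM over the 12 libraries, and the mesodermal tbxt.S stood at 0.359 to 1.17 CPM. Of the other genes chosen as early markers, sia1.L had 4.62 to 57.3 CPM, mix1.L 3.55 to 25.8, ventx1.L 0.908 to 8.43 and gsc.L 0.0645 to 2.48. The lowest gsc.L value was below the level that a count of 0 allows. Of genes chosen as markers of differentiated cells, tyr.S stood at 7.59 to 9.80 CPM, neurog2.S at 4.14 to 7.43 CPM and neurog2.L at 0.492 to 2.02 CPM. For myh6, hba1 and cpa1 the table held no gene of that name. Both tyr.S and neurog2.S, chosen as near absent, lay above tbxt.S in every library, so these markers did not settle the stage. Transcripts of 12 mitochondrially encoded genes took 14.1% of the counts in genistein 1, 8.37% in genistein 3 and 13.5% in control 1, against 1.46% in genistein 2, 4.23% in control 3, 0.946% in control 2 and 0.553% to 2.66% in the BIO and Chiron libraries. Cytosolic ribosomal protein transcripts took 0.457% to 0.521% in those 3 libraries and 0.180% to 0.270% in the other 9. These libraries also stood apart in the translation factors, as described further on, and the part of this difference in each result was not tested beyond 2 further fits, which took that share as a covariate or left the 3 libraries out.

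Together the translation factor genes took 1.17% ± 0.0495 of all counts in genistein embryos, 1.21% ± 0.0175 in BIO, 1.17% ± 0.0240 in Chiron and 1.14% ± 0.0273 in control embryos (SD, n = 3 each). The libraries overlapped between genistein (1.11% to 1.21%) and control (1.11% to 1.16%), and the BIO libraries (1.19% to 1.22%) lay above all control libraries, a difference that was not tested. With mitochondrially encoded counts left out of the total, the shares were 1.27% ± 0.0675 in genistein, 1.22% ± 0.00412 in BIO, 1.19% ± 0.0217 in Chiron and 1.22% ± 0.0899 in control. The most abundant members by counts, which are not corrected for gene length, included eif4g2.S, pabpc1.S, etf1.S and eif1.L. The heat map of all members shows that single genes differed far more between libraries than the sum did.

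**Figure D1:**
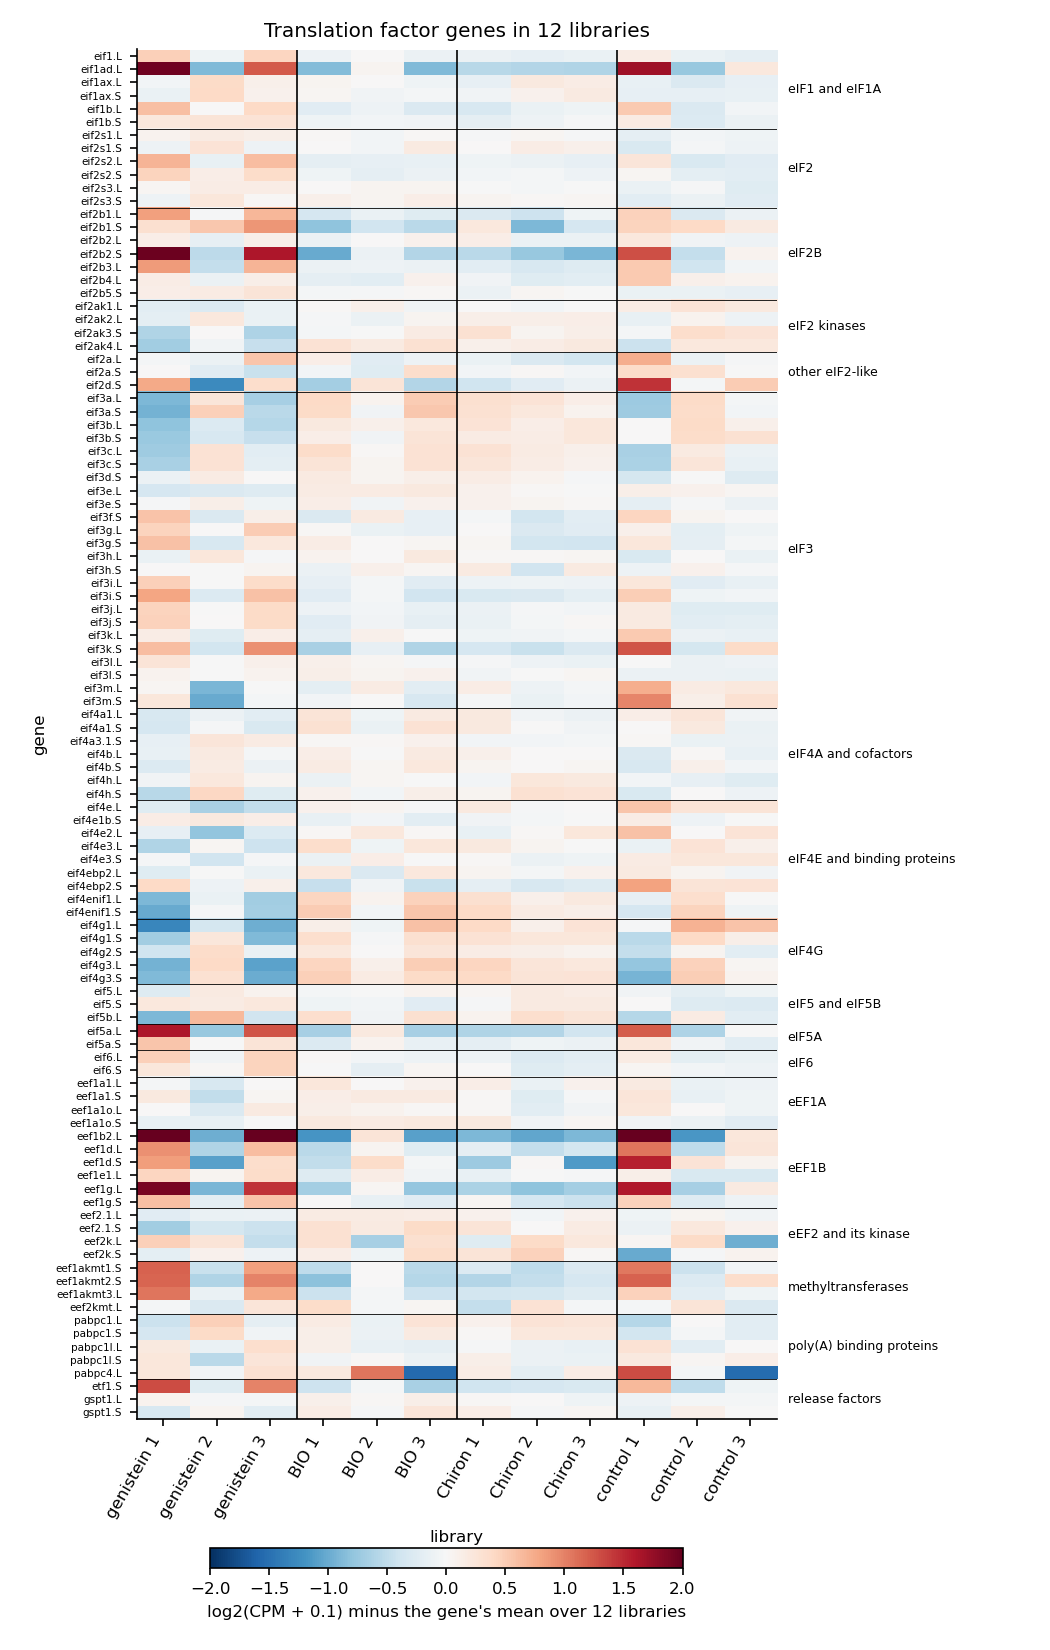
Heat map of the 104 translation factor genes (rows, grouped by role) in the 12 libraries (columns, by group), coloured by log2(CPM + 0.1) minus the gene's mean over all 12 libraries, with the colour scale ending at 2 and -2. The strongest colours lie in genistein 1, genistein 3 and control 1, where eef1b2.L, eef1g.L, eif5a.L and eif1ad.L are high and eif4g3.L and eif3a.S are low.

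In genistein against control embryos 7 of the 104 genes fell and 0 rose. They encode the cap-binding protein eIF4E (eif4e.L), the scaffold eIF4G1 (eif4g1.L), the eIF3 subunits b (eif3b.L and eif3b.S) and e (eif3e.L), the eIF2 kinase HRI (eif2ak1.L) and the translocation factor eEF2 (eef2.1.S). Of all genes, 3% were called lower and 0.362% higher at an adjusted p under 0.05 (edgeR quasi-likelihood test with Benjamini-Hochberg adjustment over all 18791 genes, as in all comparisons of single genes). The members' own share of lower calls was 6.73%. Without adjustment 31 members had a p under 0.05, beside 3958 genes of the table. The median log2 fold change was 0.10 over the members and 0.03 over all genes, and scaling by library totals alone shifted the median of all genes by -0.12 and put the members' median at -0.01. All 3 comparisons with control share the same 3 control libraries.

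Transcripts of eif4e.L, whose product binds the cap of the mRNA and recruits eIF4G, gave the smallest p. They stood at 21.2, 16.02 and 18.0 CPM in genistein replicates 1 to 3, 26.7, 26.3 and 24.9 in BIO, 28.8, 24.9 and 25.3 in Chiron and 37.2, 30.2 and 30.0 in control. All genistein libraries lay below every other library, and the control libraries lay above all BIO and Chiron libraries. The log2 fold change in genistein against control was -0.82 ± 0.14 (SE; edgeR adjusted p = 0.0111). With 1 library left out at a time the call held in 11 of 12 fits, and without genistein 3 the adjusted p was 0.0518. In BIO it was -0.32 ± 0.13 and in Chiron -0.30 ± 0.13, neither of which passed the test (edgeR adjusted p = 0.688 and 0.645).

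The largest fall was that of eif4g1.L, a copy of the gene for the scaffold that joins the cap-binding protein, the helicase, eIF3 and poly(A) binding protein. It had 9.51, 18.6 and 11.9 CPM in genistein, 25.6, 22.3 and 35.5 in BIO, 31.0, 25.3 and 28.5 in Chiron and 23.3, 38.2 and 35.0 in control libraries. The highest genistein library lay below the lowest control library, but the control libraries overlapped with those of BIO and Chiron. The log2 fold change was -1.27 ± 0.27 (edgeR adjusted p = 0.0277), and the call was lost without genistein 1, genistein 3, control 2, control 3, BIO 1 or Chiron 3. Its homeolog eif4g1.S, at 116, 221 and 102 CPM in genistein against 129, 247 and 205 in control, overlapped between the groups and was not called (-0.41 ± 0.29, edgeR adjusted p = 0.442).

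Both copies of eif3b, which encodes a scaffold subunit of eIF3 that holds several other subunits, fell by similar amounts. The L copy stood at 53.8, 77.9 and 62.8 CPM in genistein and 93.8, 122 and 101 in control, and the S copy at 37.9, 51.2 and 46.4 in genistein and 63.8, 81.8 and 78.5 in control. In BIO the L copy had 107, 101 and 109 CPM and in Chiron 114, 102 and 110.2. The genistein libraries of both copies lay below all 9 others. Log2 fold changes against control were -0.70 ± 0.14 for L and -0.73 ± 0.14 for S (edgeR adjusted p = 0.0239 and 0.0194), and each call held in 8 of 12 fits with 1 library left out. It was lost without genistein 1, genistein 3, control 2 or control 3.

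The other 3 calls concerned smaller changes, and in eif3e.L and eif2ak1.L the libraries of each group lay close together. eif3e.L, a copy of another eIF3 subunit gene, had 37.0, 38.1 and 38.9 CPM in genistein, 51.8, 51.9 and 53.3 in BIO, 49.6, 47.4 and 46.2 in Chiron and 50.2, 49.4 and 47.8 in control. eif2ak1.L, which encodes the heme-regulated kinase that phosphorylates eIF2, had 57.3, 54.5 and 59.9 CPM in genistein, 67.3, 70.7 and 62.7 in BIO, 66.2, 63.6 and 66.4 in Chiron and 73.0, 79.4 and 75.6 in control. In both genes every genistein library was below all 9 others. For eef2.1.S, a copy of the gene for the factor that moves the ribosome by a codon, the values were 93.3, 119 and 113 CPM in genistein, 188, 172 and 198 in BIO, 181, 153 and 169.9 in Chiron and 139.7, 177 and 162 in control, again with genistein lowest. The log2 fold changes against control were -0.37 ± 0.09, -0.41 ± 0.09 and -0.56 ± 0.13 for eif3e.L, eif2ak1.L and eef2.1.S, with edgeR adjusted p = 0.0411, 0.0345 and 0.0458. These were the calls that lay nearest the threshold. With 1 library left out at a time, eif3e.L was called in 1 of 12 fits, without genistein 2, and eif2ak1.L and eef2.1.S were called in 2 each, without genistein 2 and without control 1.

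**Figure D2:**
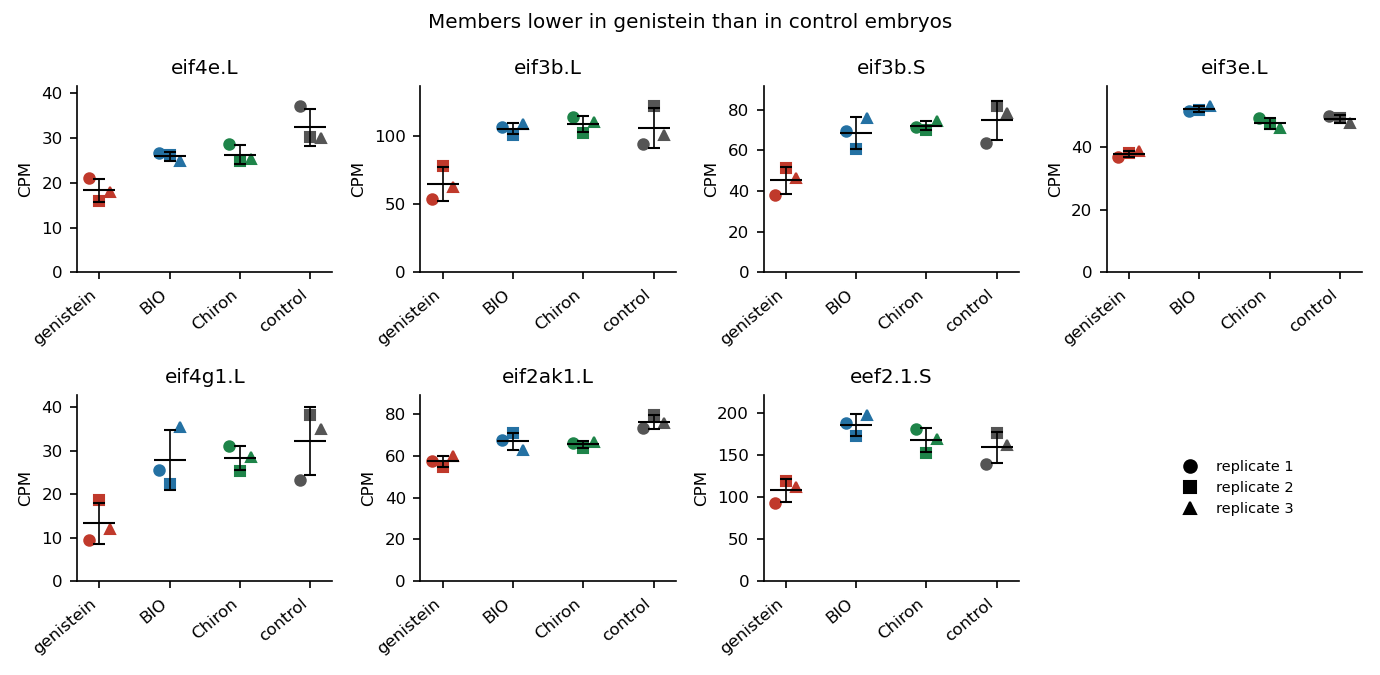
Level in CPM (vertical axes, from 0) of the 7 translation factor genes called lower in genistein than in control, by group, with a point for each library, its shape giving the replicate, and bars for mean ± SD (n = 3). In each panel the 3 genistein libraries lie below the 3 control libraries, as for eif4e.L at 16.02 to 21.2 CPM in genistein against 30.0 to 37.2 in control.

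How many calls there were depended on the fit. With the log2 mitochondrial share of each library as a covariate, 17 members were higher and 17 lower in genistein, where 19.4% of all genes were called, and all 7 genes above were among the lower ones. Without genistein 1, genistein 3 and control 1, which leaves genistein 2 as the lone genistein library, taken to vary as the other groups do, 5 were higher and 11 lower (6.95% of all genes), 6 of the 7 among them. When only the genistein and control libraries were fitted no member was called, and 1 gene was called in the whole table. With single libraries left out there were 0 calls without genistein 3 and 1 each without genistein 1, control 2 or control 3. There were 3 to 4 without any 1 of the BIO or Chiron libraries, 9 without control 1 (5.66% of all genes) and 33 without genistein 2 (25.3% of all genes). For the other left-out libraries the share of all genes called is not given here. Those counts cannot tell a loss among members from a loss over the whole table.

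The genes for eIF1 and eIF1A, which hold the scanning ribosome open and check the start codon, were counted together with eif1ad.L. The product of eif1ad.L is a protein with an eIF1A domain. Values in genistein were positive in 6 of 6 cases, with none called. eif1ax.L had 203, 275 and 226 CPM in genistein against 190.2, 172 and 187 in control, without overlap. The log2 fold changes were 0.36 ± 0.14 for it, 0.30 ± 0.14 for eif1ax.S, 0.31 ± 0.12 for eif1b.S and 0.34 ± 0.16 for eif1.L, with edgeR adjusted p between 0.183 and 0.253. With the covariate eif1ax.L and eif1b.S were called higher (0.36 and 0.29, edgeR adjusted p = 0.0432 and 0.0354), in a fit that called 1612 of 18791 genes higher. The signs of all 6 were also positive under scaling by library totals alone. Without control 1, genistein 1 and genistein 3, 5 were positive and 1 was negative, at -0.69.

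The genes of eIF2, the trimer that carries the initiator tRNA, also had positive values in 6 of 6 cases under each of the 3 scalings. The alpha subunit gene eif2s1.L, whose product is the target of the eIF2 kinases, had 185, 198 and 192 CPM in genistein, 179, 169.9 and 178 in BIO, 173, 179.9 and 172 in Chiron and 155, 169.9 and 166 in control. The beta subunit gene eif2s2.S had 136, 110.1 and 129 CPM in genistein and 103, 87.5 and 86.4 in control, with all genistein libraries above control. Its log2 fold change of 0.44 ± 0.11 gave an edgeR adjusted p of 0.0570, just outside the threshold. The other 5 ranged from 0.18 (eif2s1.S) to 0.50 (eif2s2.L), and 5 of the 6 had an unadjusted p under 0.05. With the covariate 5 of 6 were called higher, in a fit that called 1612 of 18791 genes higher. Without the 3 libraries that stand apart, which leaves 1 genistein library, 6 of 6 were positive, with a median of 0.30. Among them was eif2s3.S, which encodes the gamma subunit. In BIO and Chiron the values of eif2s2.S against control were -0.01 ± 0.11 and 0.05 ± 0.11. Positive values of eIF2 genes were not confined to genistein. In BIO 4 of 6 were positive, with a median of 0.14, and in Chiron 5 of 6, with a median of 0.10. With the covariate 6 of 6 were positive in both. None was called in either group.

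eIF2B, a complex of 5 kinds of subunit, reloads eIF2 with GTP, and none of its 7 genes was called in the edgeR fit of all 12 libraries without a covariate. Its catalytic epsilon subunit gene eif2b5.S stood at 136, 139 and 148 CPM in genistein, 119.7, 121 and 125 in BIO, 114, 127 and 123 in Chiron and 113, 113 and 111 in control. All genistein libraries lay above all control libraries, with a log2 fold change of 0.33 ± 0.09 and an edgeR adjusted p of 0.0713. The beta subunit gene eif2b2.S had the widest fold range of the 7 in genistein and in control, at 28.2, 4.95 and 22.3 CPM in genistein and 17.7, 5.16 and 7.53 in control. Its high libraries were genistein 1, genistein 3 and control 1, and its log2 fold change of 0.87 ± 0.56 did not pass the test. eif2b1.L and eif2b5.S were called higher in genistein with the covariate, in a fit that called 1612 of 18791 genes higher.

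Of the 4 genes for eIF2 kinases, which slow initiation when a cell is stressed, 3 had negative values in genistein (4 under scaling by library totals alone) and only eif2ak1.L was called. The gene for the endoplasmic reticulum kinase PERK, eif2ak3.S, had 80.4, 123 and 79.4 CPM in genistein and 119, 156 and 148 in control, so the groups overlapped in their highest and lowest library. Its log2 fold change was -0.58 ± 0.18 (edgeR adjusted p = 0.101). That of the amino acid sensor GCN2, eif2ak4.L, was -0.41 ± 0.19, and that of PKR, eif2ak2.L, was 0.02 ± 0.13. Both eif2ak1.L and eif2ak3.S were called lower in genistein with the covariate, in a fit that called 2042 of 18791 genes lower. In BIO and Chiron eif2ak1.L also lay below all control libraries, at -0.18 ± 0.09 and -0.22 ± 0.09, without passing the test (edgeR adjusted p = 0.688 and 0.645).

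eIF2A and eIF2D can place a tRNA on the ribosome without eIF2, and their 3 genes were not called. eif2d.S had 13.1, 3.14 and 9.89 CPM in genistein and 21.2, 7.48 and 11.1 in control. Within its groups eif2d.S was lowest in genistein 2 and highest in control 1. Its log2 fold change was -0.60 ± 0.48 (edgeR adjusted p = 0.493), and with the covariate it was called lower at -0.91 (edgeR adjusted p = 0.00297).

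eIF3 is the largest initiation factor, and 24 genes encoded its subunits. In genistein 3 fell, 0 rose, and the median was 0.02, with 14 positive and 10 negative values. Scaling by library totals alone turned that split to 10 positive and 14 negative. The subunit gene eif3m.L, named after its values were seen, had 41.6, 21.4 and 40.2 CPM in genistein, 35.3, 45.3 and 34.9 in BIO, 44.6, 37.7 and 39.4 in Chiron and 66.9, 45.1 and 46.9 in control, with genistein below control without overlap (-0.62 ± 0.24, edgeR adjusted p = 0.176). Its homeolog eif3m.S stood at -0.70 ± 0.29. With the covariate both eif3m copies were called lower, as were eif3b.L, eif3b.S and eif3e.L, and eif3i.L, eif3d.S, eif3j.L and eif3j.S were called higher. That fit called 2042 of 18791 genes lower and 1612 higher. eif3j, a loosely bound subunit, had 389, 283 and 370.1 CPM of its L copy in genistein against 322, 239.9 and 241 in control (0.38 ± 0.15), with overlap at control 1.

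Among 7 genes for the helicase eIF4A and its cofactors eIF4B and eIF4H, none was called in genistein. eif4a1.L stood at 127, 147 and 137 CPM in genistein and 173, 187 and 151 in control, with all genistein libraries below control by a small margin. The log2 fold changes were -0.32 ± 0.14 for eif4a1.L and -0.25 ± 0.15 for eif4a1.S (edgeR adjusted p = 0.215 and 0.379).

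Of 9 genes for eIF4E proteins and their partners, 8 had negative values in genistein under each scaling, with a median of -0.39, and only eif4e.L was called. eif4e2.L encodes 4EHP, a cap-binding protein that does not recruit eIF4G, and had 12.3, 8.01 and 11.4 CPM in genistein, 14.1, 16.02 and 14.1 in BIO, 12.5, 14.1 and 16.2 in Chiron and 20.9, 13.9 and 16.8 in control. Genistein lay below control without overlap (-0.70 ± 0.20, edgeR adjusted p = 0.0808). eif4enif1.L, for the eIF4E transporter found in repressed messenger particles, had 107, 182 and 123 CPM in genistein, 269, 210.1 and 274 in BIO, 249, 214 and 228 in Chiron and 178, 253 and 199 in control (-0.61 ± 0.21, edgeR adjusted p = 0.129). The exception was eif4e1b.S, which encodes the oocyte form of eIF4E, at 92.3, 95.3 and 91.5 CPM in genistein and 91.6, 77.6 and 82.7 in control (0.15 ± 0.09). With the covariate 7 of the 9 were called lower, in a fit that called 2042 of 18791 genes lower. Without the 3 libraries that stand apart, which leaves 1 genistein library, 8 of the 9 were negative, with a median of -0.33.

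The eIF4G genes split. Beside the call of eif4g1.L, eif4g3.L and eif4g3.S had negative values in genistein (-0.37 ± 0.37 and -0.39 ± 0.36) and eif4g2.S a positive one (0.17 ± 0.21). eif4g2.S encodes a relative of eIF4G that lacks the site for eIF4E, and it stood at 564, 954 and 676 CPM in genistein against 534, 774 and 639 in control. Genistein 2 and control 2 were the high libraries of their groups, and the groups overlapped.

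Factors that act late in initiation or on the large subunit were not called in genistein in the edgeR fit of all 12 libraries without a covariate. eif5.S, for the protein that triggers GTP hydrolysis by eIF2, had 42.2, 40.8 and 42.3 CPM in genistein, 34.1, 35.2 and 31.0 in BIO, 35.8, 41.1 and 41.2 in Chiron and 36.5, 30.3 and 30.1 in control. Genistein was above control without overlap, with a log2 fold change of 0.37 ± 0.11 (edgeR adjusted p = 0.0999). eif5.S was called higher with the covariate, in a fit that called 1612 of 18791 genes higher. eif6.L and eif6.S, for the factor that keeps the large subunit from joining too early, stood at 0.35 ± 0.15 and 0.27 ± 0.12 (edgeR adjusted p = 0.218 and 0.237). eIF5A, which helps the ribosome through stretches of proline, stood at 0.62 ± 0.55 for the L copy and 0.30 ± 0.16 for the S copy, and the L copy was among the genes with the largest spread within groups.

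No gene for eEF1A, the most abundant elongation factor of most cells, was called. eef1a1o.S, named as an oocyte form, had 195, 195 and 216 CPM in genistein, 247, 243 and 249 in BIO, 247, 207 and 223 in Chiron and 206, 199 and 185 in control. The other 3 copies, eef1a1o.L, eef1a1.L and eef1a1.S, had log2 fold changes of -0.08 ± 0.14, -0.10 ± 0.13 and -0.07 ± 0.17 in genistein. Their 95% intervals ran from -0.37 to 0.22, from -0.39 to 0.20 and from -0.45 to 0.32. For eEF2, the L copy stood at 131, 139 and 142 CPM in genistein and 144, 159 and 146 in control, a difference of -0.12 ± 0.10 that did not pass the test, although genistein lay below control in every library. The gene for eEF2 kinase, which switches eEF2 off, was sparse, with 3.95, 4.79 and 4.23 CPM of eef2k.S in genistein against 2.20, 4.45 and 4.76 in control.

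The 4 methyltransferase genes, whose products modify eEF1A or eEF2, were not called, and eef1akmt3.L had the largest value at 0.56 ± 0.27 (edgeR adjusted p = 0.254). It was called higher with the covariate, in a fit that called 1612 of 18791 genes higher. Among 5 poly(A) binding protein genes, pabpc1.S stood at 516, 856 and 625 CPM in genistein and 505, 636 and 565 in control (0.23 ± 0.19). pabpc1l.L, for the embryonic poly(A) binding protein that protects maternal messages, stood at 64.8, 52.0 and 71.9 in genistein and 69.4, 49.1 and 57.1 in control (0.10 ± 0.16). Neither differed beyond the spread of its groups. pabpc1l.S was called lower without the 3 libraries that stand apart, and stood at -0.10 ± 0.18 in the fit of all libraries. pabpc4.L was near the limit of detection in several libraries, at 0.142 to 1.63 CPM in control.

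Release factors were not called in the edgeR fit of all 12 libraries without a covariate. etf1.S, which encodes eRF1, the protein that reads stop codons, had 1478, 505 and 1188 CPM in genistein, 447, 582 and 381 in BIO, 453, 475 and 482 in Chiron and 929, 421 and 562 in control. Genistein 1, genistein 3 and control 1 were the 3 highest of the 12 libraries. The log2 fold change of 0.73 ± 0.37 had an edgeR adjusted p of 0.284. etf1.S was called higher in genistein with the covariate, in a fit that called 1612 of 18791 genes higher. The genes for eRF3, gspt1.L and gspt1.S, stood at 0.06 ± 0.09 and -0.14 ± 0.13.

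**Figure D3:**
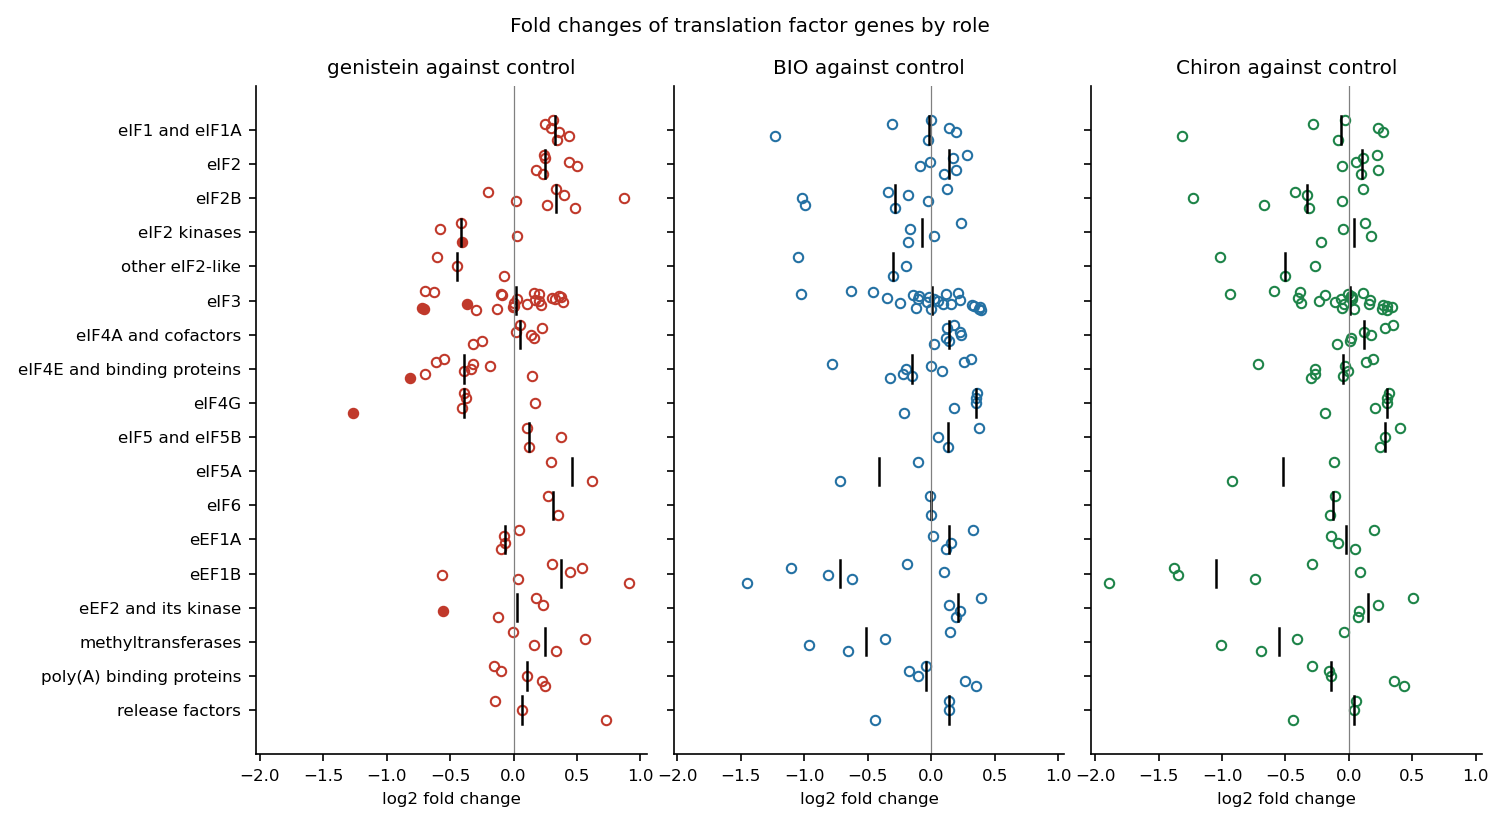
Log2 fold change (horizontal axes) of each translation factor gene against control, by role (vertical axis), in genistein, BIO and Chiron; a point is a gene, filled where its adjusted p was under 0.05, and the bar is the median of the role. Filled points appear in genistein alone, all left of 0, and the eIF2 genes lie right of 0 in genistein, between 0.18 and 0.50.

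In BIO against control 0 of 104 members were called, as were 0.0266% of all genes. At an unadjusted p under 0.05 there were 10 members, beside 1102 genes of the table. DESeq2 called 1 member, and the share of all genes that it called is not given here. The member with the smallest p was eif4ebp2.S, for a protein that blocks eIF4E until it is phosphorylated by mTOR. It had 44.0, 30.9 and 35.5 CPM in genistein, 24.2, 31.7 and 24.3 in BIO, 29.5, 26.6 and 27.8 in Chiron and 58.2, 39.8 and 40.3 in control. All BIO and Chiron libraries lay below all control libraries, and control 1 was the highest library. The log2 value in BIO was -0.78 ± 0.18 (edgeR adjusted p = 0.351), and that of its homeolog eif4ebp2.L was 0.00 ± 0.15. The next by p were eef1a1o.S at 0.33 ± 0.11, eif2b1.S, for an eIF2B subunit, at -0.997 ± 0.35, and eif2s3.S at 0.28 ± 0.10, each with an edgeR adjusted p of 0.688.

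In Chiron against control 0 members and 0% of all genes were called. At an unadjusted p under 0.05 there were 12 members, beside 1131 genes, and DESeq2 called 0 members. eif4ebp2.S again had the smallest p, with a log2 value of -0.72 ± 0.18 (edgeR adjusted p = 0.645). It was followed by eif2b4.L, another eIF2B subunit gene, at -0.42 ± 0.15, eif5.S at 0.29 ± 0.11 and eef1d.S, for an eEF1B subunit, at -1.35 ± 0.54. Of all roles, the eEF1B genes had the medians furthest from 0, with -0.72 in BIO and -1.04 in Chiron and none called. These were 6 genes, counting eef1e1.L, which was placed in this role by its name. In control 1, 6 of 6 of them had their highest control level. The mitochondrial share of that library was 13.5%, against 0.553% to 2.66% in BIO and Chiron. With the covariate the median of the eEF1B genes was 0.26 in BIO and -0.01 in Chiron. Without control 1, genistein 1 and genistein 3 it was -0.17 in BIO and -0.40 in Chiron. The part of control 1 in these medians was not tested further. Over all members the median was 0.01 in BIO and -0.04 in Chiron, beside 0.01 and 0.02 over all genes.

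Comparisons between compounds set no compound against control, although all 12 libraries entered the estimate of the spread. Genistein against BIO gave 5 lower and 0 higher members, where 2.94% of all genes were lower and 0.692% higher. The largest of these changes was in eif4enif1.L (-0.87 ± 0.21, edgeR adjusted p = 0.0460). eef2.1.S had the smallest p (-0.78 ± 0.13, edgeR adjusted p = 0.0133), followed by eif3e.L (-0.46 ± 0.09, 0.0187), eif3b.L (-0.70 ± 0.14, 0.0277) and eif3b.S (-0.60 ± 0.14, 0.0436). eif2s2.S stood at 0.45 ± 0.11 with an edgeR adjusted p of 0.0505. No member was called without BIO 1, BIO 3, genistein 1 or genistein 3, 1 was without BIO 2, and 2 to 3 were without control 3 or a Chiron library. The share of all genes called in those fits is not given here, so these counts do not set members against the table. There were 20 calls without control 1 (14.4% of all genes) and 57 without genistein 2 (46.8% of all genes). Without control 1, genistein 1 and genistein 3 the calls of eef2.1.S and eif3e.L were kept and those of eif4enif1.L and both eif3b copies were lost, among 7 calls (4.1% of all genes).

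Genistein against Chiron gave 3 lower and 0 higher members, where 2.17% of all genes were lower and 0.181% higher. These were eif3b.L (-0.75 ± 0.14), eif3b.S (-0.67 ± 0.14) and eef2.1.S (-0.63 ± 0.13), with edgeR adjusted p = 0.0250, 0.0328 and 0.0335. These 3 genes were thus called lower in genistein against each of the other groups in the TMM-scaled fit of all 12 libraries. The comparisons share the same 3 genistein libraries and 1 estimate of the spread, so they do not count as separate evidence. With replicate number as a block, eef2.1.S was lost against control and Chiron, and eif3b.S against BIO. With library totals eef2.1.S was lost against control. Without control 1, genistein 1 and genistein 3 none of the 3 calls against Chiron was kept, and eif4e.L and both copies of eif3m were called lower in their place (2.75% of all genes called). eif4e.L stood at -0.50 ± 0.13 against BIO and -0.52 ± 0.13 against Chiron, outside the threshold in both (edgeR adjusted p = 0.0626 and 0.0679). Against Chiron no member was called without genistein 1, genistein 3, BIO 1 or any of the Chiron libraries, and 1 each was without BIO 3 or control 3. The share of all genes called in those fits is not given here either. There were 19 calls without control 1 (14.8% of all genes) and 55 without genistein 2 (48.4% of all genes).

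Between BIO and Chiron, which share the target GSK3 and differ in structure, 0 members and 0% of all genes were called. No member had an unadjusted p under 0.05, and 217 genes of the table did. The smallest p was that of eif5.S, at 33.4 ± 2.17 CPM in BIO and 39.4 ± 3.11 in Chiron (SD, n = 3 each), with a log2 difference of -0.23 ± 0.11 and a 95% interval from -0.48 to 0.01. For eif3e.L, next by p, the interval ran from -0.05 to 0.32, for eef1a1.S from -0.14 to 0.63 and for eif4h.L from -0.42 to 0.10. Each of these intervals included 0 and also differences away from 0, so they do not show that the compounds act alike.

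The groups often failed to overlap without a call. In genistein against control 10 members lay above and 12 below control in every library, 21.2% of members, beside 17.1% of all genes tested. The share was 19.2% in BIO (15.2% of all genes) and 29.8% in Chiron (20.4% of all genes). Between compounds it was 25.0% for genistein against BIO (25.4% of all genes), 35.6% for genistein against Chiron (29.3%) and 11.5% for BIO against Chiron (9.39%).

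Within groups, members varied most in genistein and control. The highest library exceeded the lowest by more than 2-fold in 24 of 104 members in genistein (23.1%, beside 30.2% of all genes), in 3 in BIO (2.88%, beside 7.68%), in 2 in Chiron (1.92%, beside 4.51%) and in 19 in control (18.3%, beside 19%). The widest range was in eef1b2.L, which encodes the exchange subunit of eEF1B, at 621, 51.8 and 435 CPM in genistein, 44.8, 123 and 48.0 in BIO, 54.4, 49.6 and 54.9 in Chiron and 426, 45.6 and 119 in control. Genistein 1 had 11.98 times the level of genistein 2, and control 1 had 9.34 times that of control 2. Its group difference in genistein was 0.91 ± 0.84 and did not pass the test (edgeR adjusted p = 0.564).

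Other genes shared this order of libraries. eef1g.L, for the subunit that anchors eEF1B, had 716, 102 and 522 CPM in genistein and 582, 121 and 219 in control. eif5a.L had 366, 70.0 and 285 in genistein and 275, 77.5 and 117 in control, and eif1ad.L, for a protein with an eIF1A domain, had 147, 20.6 and 89.1 in genistein and 124, 22.4 and 43.8 in control. In each the libraries rich in mitochondrial transcripts were high. The reverse held for eif4g3.S, at 39.1, 89.2 and 36.4 CPM in genistein and 38.2, 102 and 76.2 in control, for eif3a.S, which encodes the largest eIF3 subunit, at 92.6, 249 and 122 in genistein and 109, 229.8 and 171 in control, and for eif5b.L, for the subunit-joining GTPase, at 56.4, 165 and 80.6 in genistein and 71.4, 118 and 91.5 in control. These genes were named after their values were seen.

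This order was counted over all members. Control 1 was the highest control library and genistein 2 the lowest genistein library in 50 of 104 members (48.1%), beside 35.1% of all genes. The opposite held in 31 members (29.8%), beside 34.5% of all genes. By role, the first pattern held in 6 of 6 eEF1B genes (counting eef1e1.L), 4 of 4 eEF1A genes, 5 of 7 eIF2B genes and 13 of 24 eIF3 genes. The second held in 5 of 5 eIF4G genes, 3 of 4 eIF2 kinase genes and 9 of 24 eIF3 genes. The plot of the 7 genes called lower in genistein shows the order of libraries in each group. There eif4g1.L, eif3b.L, eif3b.S and eef2.1.S were lowest in genistein 1 and in control 1, while eif4e.L was highest in both.

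**Figure D4:**
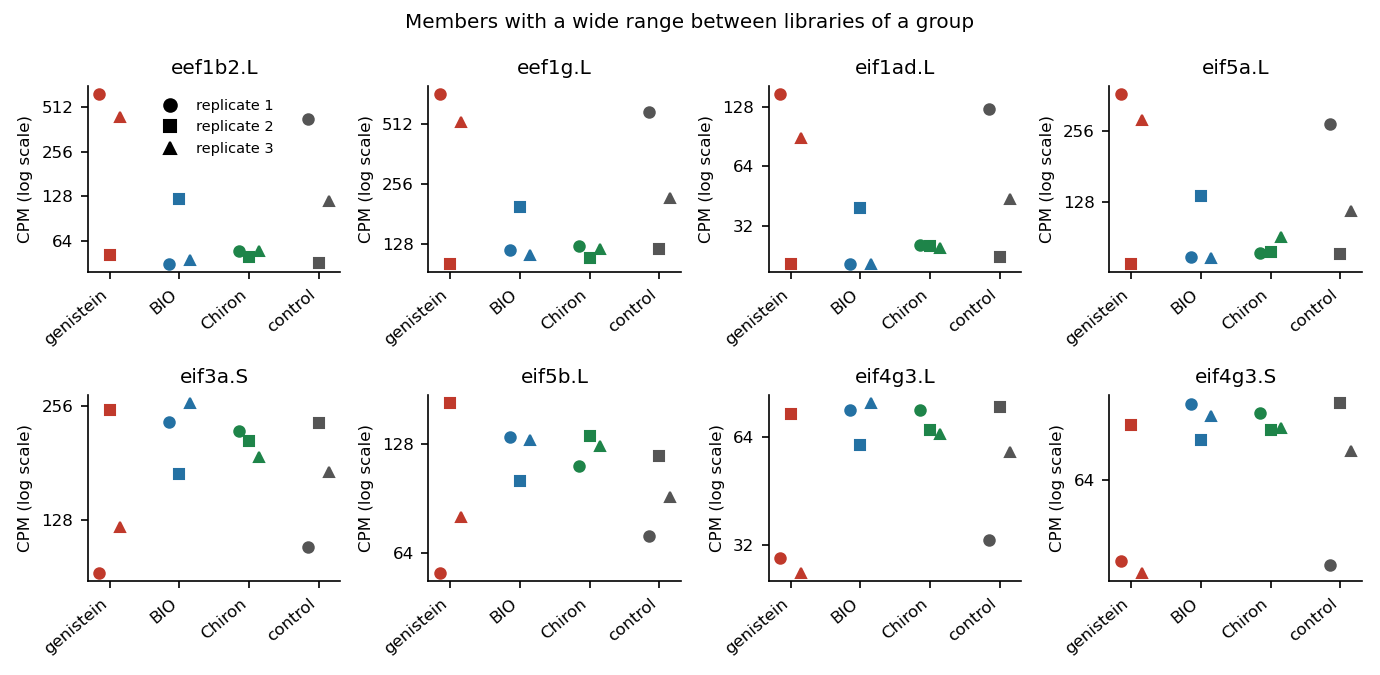
Level in CPM (vertical axes, log scale) of 8 translation factor genes with a wide range between libraries of a group, by group, a point for each library and its shape giving the replicate. In the upper row genistein 1, genistein 3 and control 1 are high (eef1b2.L at 621, 435 and 426 CPM), and in the lower row they are low (eif4g3.L at 29.4, 26.8 and 33.1 CPM).

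The ratio of the L to the S copy of a gene is taken within a library, so a scaling factor common to both cancels. There were 39 pairs among the members, of 5151 pairs in the table, and their log2 L to S ratio was tested with limma. In genistein against control the ratio changed in 3 of the 39 member pairs, beside 437 of all 5151 pairs (8.48%). The members' share was thus not above that of the table. The share of the L copy varied over the 12 libraries by a median of 7.69 percentage points in member pairs and 10.4 in all pairs. The L copy of eif4g1 took 7.59, 7.76 and 10.5% of the pair's counts in genistein, 9.76, 10.7 and 13.1% in BIO, 11.9, 10.3 and 11.5% in Chiron and 15.3, 13.4 and 14.6% in control. Genistein lay below control without overlap, and so did BIO and Chiron. The log2 ratio differed by -0.85 ± 0.15 in genistein (limma adjusted p = 0.00540), and by -0.43 ± 0.15 in BIO and -0.42 ± 0.15 in Chiron, which were not called (limma adjusted p = 0.461 and 0.601).

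For eif3e the L share was 33.2, 31.7 and 35.3% in genistein, 38.3, 41.9 and 39.7% in BIO, 38.1, 37.4 and 37.4% in Chiron and 42.8, 39.9 and 40.4% in control. The difference of -0.47 ± 0.10 in genistein (limma adjusted p = 0.0105) came with the lower level of eif3e.L, while eif3e.S was not called (0.10 ± 0.10). In eef2 it was the L copy that took more in genistein, with 58.4, 53.9 and 55.8% in genistein, 47.8, 49.9 and 46.1% in BIO, 47.3, 49.2 and 48.9% in Chiron and 50.8, 47.4 and 47.4% in control. This difference of 0.43 ± 0.09 (limma adjusted p = 0.0116) was lost without control 2 (adjusted p = 0.0538) or control 3 (adjusted p = 0.0541). The eef2 ratio was also called in genistein against BIO (0.47 ± 0.09, limma adjusted p = 0.0139) and against Chiron (0.44 ± 0.09, 0.0214), as was that of eif3e against BIO (-0.41 ± 0.10, 0.0269). The calls against BIO were both lost without BIO 1 or BIO 3, and that of eef2 alone was left without genistein 1 or BIO 2. The call against Chiron was lost without genistein 1, genistein 3 or any of the Chiron libraries. Without genistein 2 there were 6 pairs called against control, 16 against BIO and 15 against Chiron, where 21.7%, 29.5% and 29.1% of all pairs were called. In the fit of all 12 libraries, 2 of 39 member pairs were called against BIO, beside 6.48% of all pairs. Against Chiron 1 of 39 was called, beside 4.17%. In neither comparison was the members' share above that of all pairs.

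No member pair changed its ratio in BIO or Chiron against control, where limma called 0.155% and 0.0194% of all pairs. At an unadjusted p under 0.05 there were 4 and 5 of the 39 member pairs, beside 414 and 369 of all 5151 pairs. Between BIO and Chiron no member pair changed its ratio either, where 0% of all pairs were called. There no member pair had an unadjusted p under 0.05, and 110 of all pairs did. The smallest p in both comparisons with control was that of the eef1a1o pair, whose L copy took 39.4, 34.7 and 39.7% in genistein, 35.5, 35.2 and 33.8% in BIO, 34.1, 34.4 and 34.9% in Chiron and 41.7, 38.9 and 39.0% in control. BIO and Chiron did not overlap with control, with differences of -0.31 ± 0.09 and -0.33 ± 0.09 (limma adjusted p = 0.384 and 0.381). Across all 12 libraries the L copy held over 50% in 14 member pairs and the S copy in 15. Among all pairs of the table these numbers were 2090 and 1874 of 5148. The extremes were eif2b1, with an L share of 94.5% to 97.7%, and eif4g1, with one of 7.59% to 15.3%. Over both copies, 33 of 39 pairs had the same sign of the fold change in genistein against control, 34 in BIO against control and 31 in Chiron against control. The share of same signs over all pairs is not given here, so these counts do not set members against the table. The pair with both copies called in genistein was eif3b.

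**Figure D5:**
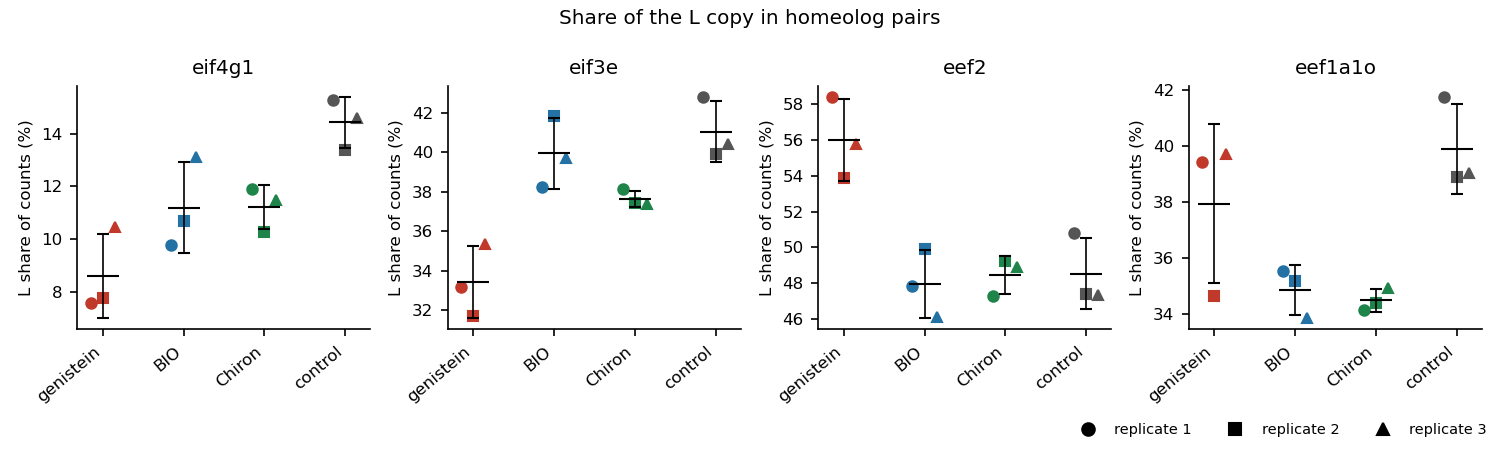
Share of the L copy in the counts of a homeolog pair (vertical axes in percent, not starting at 0), by group, for the pairs eif4g1, eif3e, eef2 and eef1a1o; points are libraries, their shape gives the replicate, and bars are mean ± SD (n = 3). Genistein is apart from control in the first 3 pairs, as for eef2 with 53.9% to 58.4% in genistein against 47.4% to 50.8% in control, and in eef1a1o BIO and Chiron lie below control.

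Other genes of the machinery were read from lists of names. Of 33 cytosolic tRNA synthetase genes, whose products load tRNAs with amino acids, 2 fell and 0 rose in genistein against control (6.06% lower, beside 3% of all genes). lars1.L, for leucine, had 14.4, 14.2 and 12.4 CPM in genistein, 24.2, 21.0 and 23.9 in BIO, 20.7, 23.2 and 19.8 in Chiron and 24.4, 30.8 and 25.1 in control, with genistein lowest throughout (-0.97 ± 0.13, edgeR adjusted p = 0.00451). qars1.L, for glutamine, had 12.4, 16.9 and 16.3 CPM in genistein and 25.9, 24.0 and 26.0 in control (-0.73 ± 0.17, edgeR adjusted p = 0.0441). The median over the list was -0.19 in genistein, beside 0.03 over all genes, with 25 of 33 values negative. Against BIO 5 fell, of which lars1.L (-0.75 ± 0.13), gars1.S, for glycine (-1.02 ± 0.20), cars1.S, for cysteine (-0.68 ± 0.15), and mars1.S, for methionine (-0.46 ± 0.11), had the smallest p, at edgeR adjusted p values from 0.0146 to 0.0456, and the fifth was qars1.S (-0.79 ± 0.19). Against Chiron lars1.L fell (-0.63 ± 0.13, edgeR adjusted p = 0.0328). There were 0 calls in the list in BIO or Chiron against control, and 1 and 2 genes with an unadjusted p under 0.05.

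Of 71 genes for regulators of translation, 3 fell and 0 rose in genistein against control (4.23% lower, a share near the 3% of all genes). Both copies of lsm14b, which encodes a protein of repressed messenger particles, fell. lsm14b.S had 60.3, 57.0 and 63.2 CPM in genistein and 96.4, 89.4 and 88.3 in control (-0.60 ± 0.11, edgeR adjusted p = 0.0144), and lsm14b.L had 43.3, 33.4 and 39.1 in genistein and 61.9, 58.9 and 66.3 in control (-0.69 ± 0.14, 0.0249). mknk1.S, for a kinase that binds eIF4G and phosphorylates eIF4E, had 30.2, 17.8 and 23.9 CPM in genistein and 54.8, 42.2 and 41.8 in control (-0.95 ± 0.19, edgeR adjusted p = 0.0230). cpeb1.S, for the protein that controls the poly(A) tails of maternal messages, had 258, 290.4 and 267 CPM in genistein, 149.9, 159 and 173 in BIO, 173, 196 and 175 in Chiron and 179, 218 and 213 in control. It was called higher in genistein against BIO (0.76 ± 0.12, edgeR adjusted p = 0.0114) and against Chiron (0.58 ± 0.12, 0.0299). dhx29.L, for a helicase that helps the small subunit scan structured leaders, was called lower against both (-0.91 ± 0.16 and -0.75 ± 0.16, edgeR adjusted p = 0.0141 and 0.0339).

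Cytosolic ribosomal protein genes gave no call in any of the 6 comparisons among 141 genes, by edgeR. Their median log2 fold change against control was 0.32 in genistein, -0.45 in BIO and -0.60 in Chiron, and 4, 3 and 18 of them had an unadjusted p under 0.05. Genistein 1, genistein 3 and control 1 held 0.457% to 0.521% of such counts, against 0.180% to 0.270% in the other 9 libraries. Without those 3 libraries the medians were -0.32 in genistein, -0.02 in BIO and -0.23 in Chiron, and 2 of the 141 genes were called lower in genistein.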

How the data were processed

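The deposited values are raw read counts, whole numbers for each gene in 1 table, and all 12 columns matched a sample by name. The submitters' processing notes name STAR 2.5.2b and edgeR without saying what each did. Build, annotation and counting tool: not given in the sources used here. Groups follow the treatment labels.

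Analysis was in R 4.3.3. Genes were kept by filterByExpr (18791 kept, 101 removed), libraries were scaled by TMM, and a quasi-likelihood model in edgeR 4.0.16 took in all 12 libraries, with 1 coefficient for each group. The common biological coefficient of variation was 22.4%. All 6 contrasts were adjusted by Benjamini-Hochberg over all genes and called under 0.05. SEs follow from the F statistic and 95% intervals from its degrees of freedom. L to S ratios were log2 of TMM-scaled counts with a prior count of 2, tested with limma 3.58.1. DESeq2 1.42.0, other scalings, no filter, a replicate block, fits of 2 groups, the mitochondrial share as covariate (linear form added after seeing the data), summed homeologs and left-out libraries were alternatives. No 2 libraries of a group agreed within sampling noise, where the lowest chi-square per degree of freedom was 2.31.

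Members and lists were chosen with earlier results of these data known. Named members are those called in a comparison (at most 8 each way by p), the 4 with the smallest p where none was called, the 8 highest by level and a list of core factors. The rule gave level as CPM per kb of coding length, but no lengths were used, so it was applied to CPM. For L to S ratios the rule was to name called pairs, or else the 3 with the smallest p. Where no pair was called, only eef1a1o is named by its p, in BIO and Chiron against control. No pair is named between BIO and Chiron. Of the other lists up to 4 called genes each way are named. Other members named in the text, such as those of eIF1A, eIF2B, eIF3, eIF4E2 and eIF5B, were chosen after their values were seen. Of the 104 names, 99 are symbols in RefSeq's table for the Xenopus laevis 10.1 assembly, which was used for names alone.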

Additional observations from a re-analysis of the deposited data

How the results depend on the processing

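The 7 members called in genistein against control became 14 with DESeq2 (5 higher, 9 lower; 9.66% of all genes), 34 and 41 with the log2 and the linear mitochondrial share as covariate (19.4% and 24% of all genes), 16 without control 1, genistein 1 and genistein 3, 3 with homeologs summed and 0 in a fit of the 2 groups alone. Against BIO the 5 calls became 31, 8 and 12 with DESeq2 and the log2 and linear covariate (20.6%, 3.77% and 6.83% of all genes), 8 with library totals, 2 with homeologs summed and 0 in the fit of 2 groups. Against Chiron the 3 calls became 28, 8 and 10 (20.9%, 3.7% and 5.09% of all genes), 5, 1 and 0 under the same settings in that order. BIO against control gave 1 call with DESeq2 and 1 with the linear covariate, and Chiron against control 1 with the linear covariate. The causes were not tested. The fit of 2 groups had fewer samples and the summed homeologs had fewer genes, and the part of this in the lost calls was not tested either. Scaling by RLE size factors and the absence of a filter kept each count of called members within 1.5 times. With RLE scaling the genes changed, however. It added eif2s2.S, positive in the TMM fit, against control (8 called) and against BIO, and lost eif4enif1.L against BIO. Library totals kept 6 of the 7 calls against control, with eif4e2.L in place of eef2.1.S. In this section, a count without a share of all genes or pairs beside it does not set the members against the table.

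With each library left out in turn the counts ranged from 0 (without genistein 3) to 33 (without genistein 2) against control, from 0 (without genistein 1, genistein 3, BIO 1 or BIO 3) to 57 (without genistein 2) against BIO, and from 0 (without genistein 1, genistein 3, BIO 1 or any Chiron library) to 55 (without genistein 2) against Chiron. Pairs with a changed L to S ratio ranged from 2 (without control 2 or control 3) to 6, from 0 to 16 and from 0 to 15 in these comparisons, each highest without genistein 2. Without the 3 libraries that stand apart, 5, 4 and 0 pairs were called. The members' share of counts with mitochondrial transcripts left out of the total was 1.27% in genistein and 1.22% in control. No named member reversed its direction while called.

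Replicate numbers were tested as a block. The correlations of same-numbered libraries ran from -0.555 (BIO 2 and control 2) to 0.767 (genistein 2 and control 2). Genistein 1 and control 1 stood at 0.676, and differently numbered libraries ran from -0.786 (genistein 2 and control 1) to 0.558 (BIO 2 and control 1). With 3 libraries a group these values cannot show whether the numbers pair the samples. With the block 4 members were called against control, 3 against BIO and 2 against Chiron, and 1 pair changed its ratio against BIO. The shares of all genes and pairs called with the block are not given here, so these counts do not set members against the table. Depth limits sparse members such as eef2k.S and pabpc4.L.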
